A study of Mus musculus with 2 samples.

Results

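The 50 genes described here encode protein parts of the spliceosome, out of 21755 protein-coding genes on chromosomes 1 to 19 and X in the GENCODE M21 annotation of mouse build mm10. They were chosen by symbol, as all protein-coding genes whose names begin with Snrnp, Snrp, Srsf, Sf3a, Sf3b or Prpf; 2 genes with such symbols are not used here. Their open chromatin was read from 2 ATAC-seq libraries of mouse megakaryocytes, the large bone marrow cells that release platelets. ATAC-seq uses a transposase that inserts adapters into accessible DNA, so that regions rich in insertions are listed as peaks.

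Both libraries were biological replicates of 1 group. Each came from 50000 primary cells of adult male C57BL/6J mice aged 5-6 weeks, with no treatment or genetic change given in the labels and a health state given as unknown. Both replicates carry 1 donor record, so the spread between them may be technical. The label of replicate 2 alone lists sequencers. The deposited lists held 79800 merged regions in replicate 1 and 81707 in replicate 2, of which 69539 shared regions were formed by overlap. The files give peaks without reads, so library depth is unknown, and a gene without a region is a gene where none was detected. With 1 group and 2 samples no test between conditions was possible, and counts and medians over the members are set beside the same values over all genes.

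Markers of several blood cell types were open in these libraries. Of 14 megakaryocyte markers, 4 had a shared promoter region, among them Itga2b with a fold enrichment of 13.5 ± 0.584 (SD, n = 2), Vwf, Itgb3 and Pf4. Those without one included Gp9, Gp1ba, Gp1bb, Gp6, Ppbp, Selp, Treml1, Clec1b and Tubb1. Promoter regions were present at 6 of 7 neutrophil and 4 of 4 monocyte markers, at 2 of 5 erythroid, 2 of 4 B cell and 2 of 4 T cell markers, and at 0 of 3 hepatocyte markers. In bulk chromatin, a region open in few cells and a region weakly open in many cannot be told apart. How much each cell type added to the values of the spliceosome genes was not tested.

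The spliceosome removes introns from pre-messenger RNA. It is assembled on each intron from small nuclear ribonucleoproteins, or snRNPs. Each is made of a small nuclear RNA and proteins of its own, and most share a ring of Sm proteins. U1 binds the 5′ splice site, U2 the branch point, and the U4/U6.U5 tri-snRNP brings in the catalytic core. A minor spliceosome with U11 and U12 removes a rare class of introns, and serine and arginine rich (SR) proteins bind exons and help to select splice sites.

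Nearly all spliceosome genes had open promoters in these megakaryocyte libraries. A shared region lay within 500 bp of a transcript start at 48 of 50 genes (96%), against 59.8% of all protein-coding genes. Most of these genes have CpG-rich 5′ ends, which are open in most genes: 31 of 50 members (62%) were CpG-rich, against 38.6% of all genes. All 31 CpG-rich members were open, and the background among CpG-rich genes was 87.1%. Of the 19 members whose 5′ ends were not CpG-rich, 17 were open, against 42.5% of such genes. Most of the 17 passed the cut on observed over expected CpG and missed only that on GC, such as Snrpg (0.755 and 54.95%). Prpf6, Snrpa1 and Snrpc had low CpG at the 5′ end, but ratios of 1.034, 1.013 and 0.880 around their region summits. Srsf12 also missed the cut on this ratio, at 0.574, and stayed low around its summit, at 0.457. How many background genes missed only the GC cut was not counted, so this gap does not describe CpG-poor promoters. The members without a shared promoter region were Snrpn and Sf3b5, described at the end.

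The height of these promoter regions was above that of the typical open promoter. Height is given as fold enrichment, the signal of a peak over its local background as the authors' peak list holds it, and it measures accessibility, not transcription. The median over the 48 open members was 13.95-fold, with quartiles of 11.2 and 16.1, against 11.5-fold over 13004 open promoters of coding genes, with quartiles of 8.66 and 14.3. In all, 34 of 48 members (70.8%) stood at or above the median of all open promoters, and 10 stood at or above its 90th percentile. Only 3 members, Snrnp35, Prpf4b and Srsf5, stood below its 25th percentile. These places depend on the measure: by the −log10 p-value of the peaks 4 members stood at or above the 90th percentile, and 3 of the 10, Snrnp48, Prpf8 and Snrpd1, did so by both measures. By −log10 p-value Prpf39, Snrnp35 and Srsf12 stood below the 25th percentile, so that Snrnp35 alone was there by both, while Srsf5 moved from 24.8 to 53.2. A list of 98 other spliceosome and splicing factor genes, such as Lsm, Ddx and Hnrnp genes, had 97 open promoters with a median of 13.6-fold. Lsm10 was the highest of that list at 21.7 ± 0.696 and Ppil1 the lowest open one at 5.81 ± 0.666 (SD, n = 2), while the splicing kinase gene Srpk3 had no region.

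The replicates gave nearly the same order of members. Across the 48 promoters the Spearman correlation between replicates was 0.9603 and the Pearson correlation 0.9688, as a description across genes that share libraries. Replicate 1 was the higher at 37 members (77.1%) and replicate 2 at 11, and all 48 differed by less than 1.5-fold. Over all open promoters replicate 1 was the higher at 62.6%, and 99.4% differed by no more than 1.5-fold. The SD between replicates had a median of 0.366 over the members, a pooled value of 0.790 and a highest value of 2.20. The means of the members had an SD of 3.78 among themselves. Neighbours in the order of height were mostly not separable: for 35 of 47 neighbouring pairs the gap was no larger than the larger SD of the pair.

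**Figure D1:**
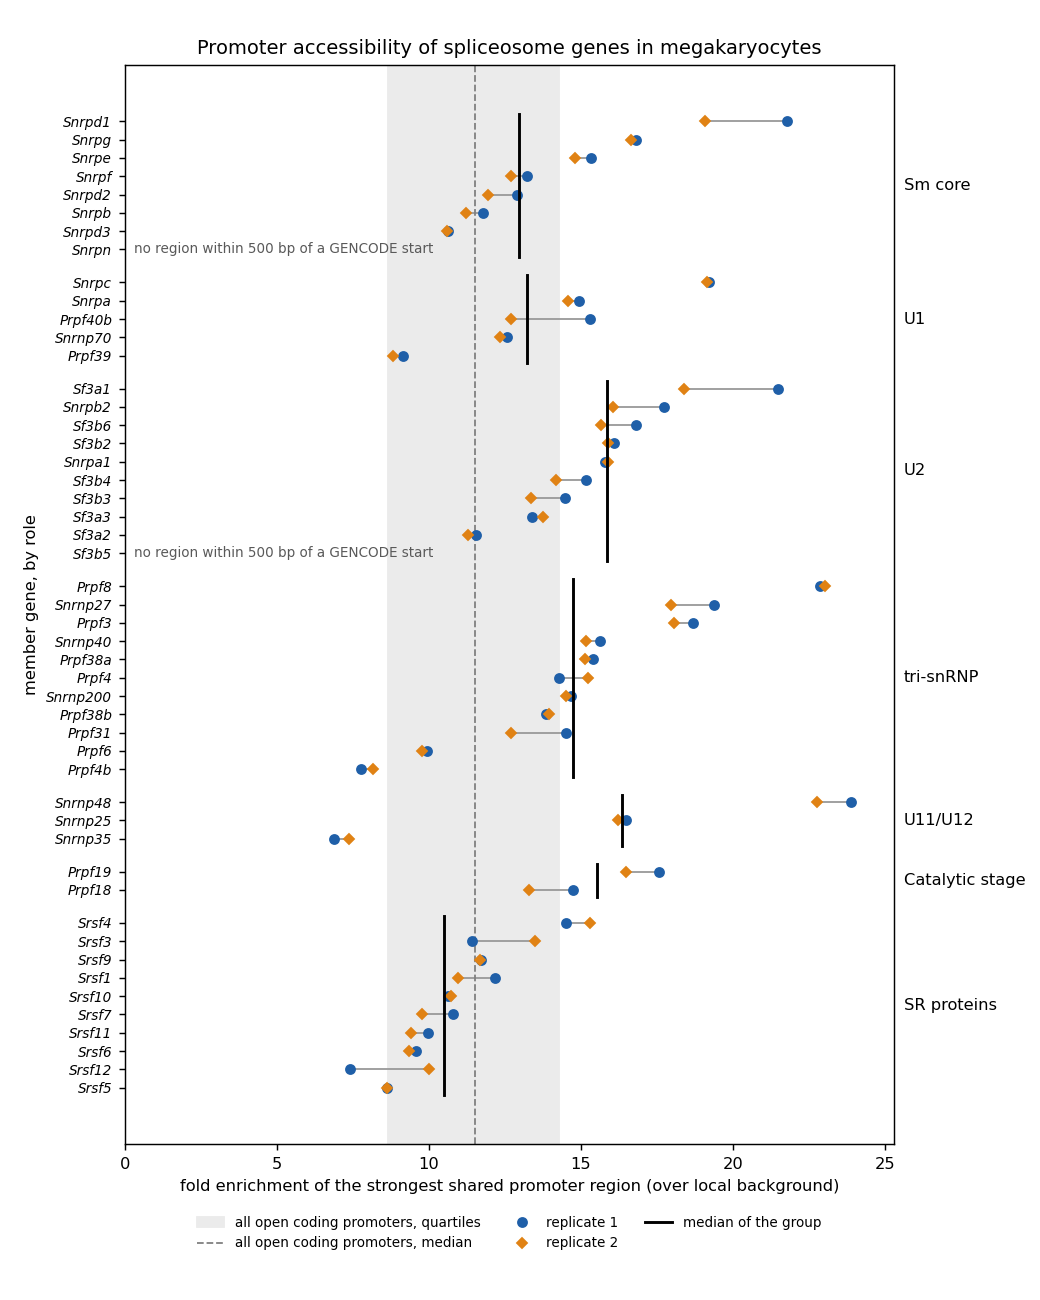
Fold enrichment of the strongest shared promoter region (x axis) for 49 spliceosome genes with or without a region (y axis, grouped by role; 1 U1 gene is not drawn), with replicate 1 as circles, replicate 2 as diamonds, the median of each group as a black line, and the quartiles and median of all open coding promoters as a grey band and dashed line. The U2 genes lie at or above 11.4-fold on average, the SR protein genes mostly below the dashed line at 11.5, and Snrpn and Sf3b5 have no value.

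The Sm ring is shared by most spliceosomal snRNPs. Of its 8 genes, 7 had a shared promoter region, with a median of 13.0-fold. Snrpd1, which encodes SmD1, was the highest of the 7, at 21.8 in replicate 1 and 19.1 in replicate 2 (20.4 ± 1.91, SD, n = 2). Snrpg followed with 16.8 and 16.7 (16.7 ± 0.117). Snrpd3 was the lowest open gene of the ring, with 10.6 in both replicates (10.6 ± 0.0232), and its values lay below both of those of every other open Sm gene. Snrpb, which encodes SmB, gave 11.8 and 11.2 (11.5 ± 0.387). It had another, weaker region whose summit lay 602 bp after the 5′ end, with 6.08 and 6.64 (6.36 ± 0.395).

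U1 proteins recognise the 5′ splice site, and all 6 of their genes had open promoters, with a median of 13.2-fold. Snrpc, whose zinc finger protein stabilises pairing of U1 with the splice site, was the highest at 19.2 and 19.1 (19.2 ± 0.0615, SD, n = 2). Prpf39, a U1-associated protein gene, was the lowest at 9.16 and 8.83 (8.99 ± 0.236). Snrpa, which encodes the A protein of U1, gave 14.9 and 14.6 (14.8 ± 0.260). Its relative Snrpb2, which encodes the B″ protein of U2, gave 17.7 and 16.0 (16.9 ± 1.18), so that the values of the pair did not overlap. Snrpa minus Snrpb2 was −2.12, with an SD of the difference of 1.21, computed as if the genes were independent and not paired by replicate. Prpf40b, another U1-associated protein gene, gave 15.3 and 12.7 (14 ± 1.83), among the largest gaps between replicates of any member.

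U2 snRNP genes had a median of 15.8-fold over 9 open genes, 8 of them at or above the median of all open promoters. Their median percentile was 86.2 by fold enrichment and 73.9 by −log10 p-value, against 63.65 and 81.2 for the Sm genes, so the order of these groups turned with the measure. The U2 snRNP holds the SF3a and SF3b complexes, which clamp it to the branch point. Sf3a1 gave 21.5 and 18.4 (19.9 ± 2.20, SD, n = 2), the largest SD of any member. Sf3a3 gave 13.4 and 13.8 (13.6 ± 0.264), and Sf3a2 gave 11.6 and 11.3 (11.4 ± 0.196), the lowest of the group. The genes of the trimeric SF3a complex were thus in the order Sf3a1, Sf3a3, Sf3a2 in both replicates. The open Sf3b genes lay closer together, from 13.9 ± 0.796 at Sf3b3 to 16.2 ± 0.804 at Sf3b6. Snrpa1, which encodes the A′ protein of U2, gave 15.8 and 15.9 (15.8 ± 0.0565).

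The letters CCGGAAG, the consensus core bound by ETS transcription factors, were present in many member promoters. Of 11 consensus motifs looked for on either strand up to 100 bp from the summit, this core had the largest gap to the background. It lay in 25 of 48 member windows (52.1%), against 16.1% of 11761 windows at open coding promoters, in which a region shared by several genes counts as 1 window. Among U2 snRNP genes it lay in 8 of 9 windows, with Snrpa1 as the exception. The counts were 4 of 7 for Sm genes, 6 of 11 for tri-snRNP genes, 4 of 10 for SR protein genes, 2 of 2 for the catalytic stage, 1 of 6 for U1 and 0 of 3 for U11/U12. No test of these differences between roles was made.

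The sites of the U2 snRNP genes are shown because nearly the whole group carries them, and at most of them they lie close to the start. Each line gives 27 bases of the GRCm38.p6 genome sequence from RefSeq, which has the coordinates of mm10, on the strand where the core reads CCGGAAG; the capitals mark the core.
Sf3a1, chr11:4160337-4160363, plus strand: gagggcgggaCCGGAAGtgctcccgcg
Sf3a2, chr10:80798649-80798675, plus strand: gcctttgctcCCGGAAGggatcgcttc
Sf3a3, chr4:124714761-124714787, minus strand: tccgcgtgtcCCGGAAGtgtcttgggg
Sf3b2, chr19:5295452-5295478, minus strand: gattacgcaaCCGGAAGtttctggaag
Sf3b3, chr8:110847016-110847042, plus strand: cctcgcaagcCCGGAAGcgcccaccgg
Sf3b4, chr3:96172438-96172464, minus strand: gggggaggagCCGGAAGcgatcgcggc
Sf3b4, chr3:96172493-96172519, plus strand: gagccttggcCCGGAAGtggaagttgt
Sf3b6, chr12:4817513-4817539, minus strand: ggattgcggaCCGGAAGgggcggggcg
Sf3b6, chr12:4817528-4817554, plus strand: ggtccgcaatCCGGAAGcgttctggag
Snrpb2, chr2:143063031-143063057, minus strand: cttccccgcgCCGGAAGagggcggcca
Snrpb2, chr2:143063050-143063076, minus strand: gaaactaataCCGGAAGagcttccccg
The flanks of these 11 sites differ from one another, and the sites lie on either strand. At Sf3a1 the middle of the core falls on the annotated start itself (0 bp), and at Sf3b3 it lies farthest away, at −242 bp, where negative positions are upstream.

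**Figure D2:**
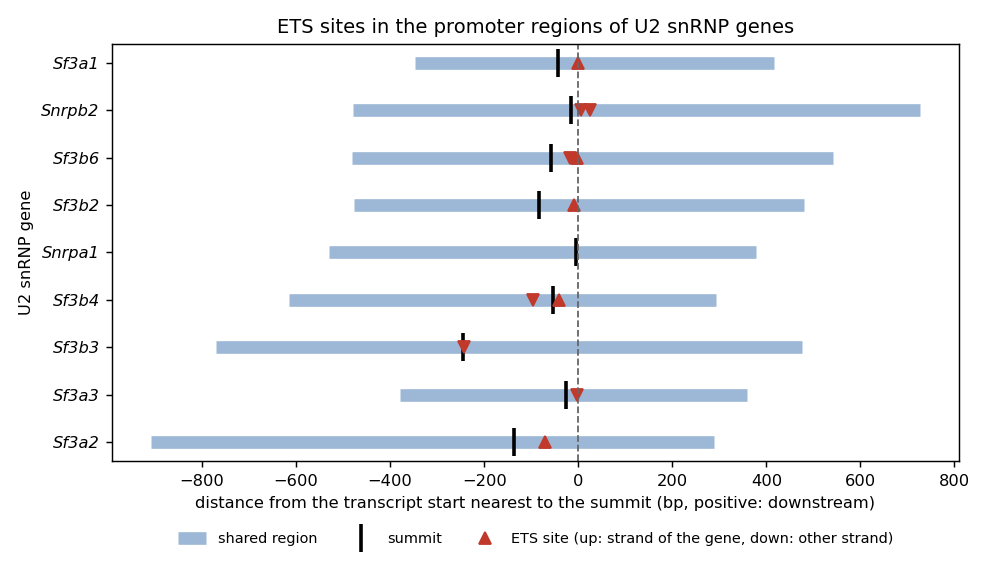
Shared regions (bars), summits (black ticks) and CCGGAAG sites (triangles, up for the strand of the gene and down for the other) of the 9 U2 snRNP genes with a promoter region, by distance in bp from the transcript start nearest to the summit. Sites lie within 100 bp of a start at every gene shown except Snrpa1, which has none, and Sf3b3, whose site is at −242 bp.

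Over all members there were 30 such sites in 25 windows, 18 on the strand of the gene and 12 on the other. Of these, 19 lay within 100 bp upstream of a start, 8 within 100 bp downstream and 3 farther away. Snrpe, Sf3b4, Sf3b6, Snrpb2 and Srsf5 had 2 sites each.

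The core goes with taller regions among all genes as well as among members. Members with it had a median of 14.9-fold and members without it 12.4-fold, against 13.5 and 10.9 over all windows. Among all windows at or above the members' median height it was present in 27.7%, and in 11.9% of those below. For the members the same shares were 66.7% (16 of 24) and 37.5% (9 of 24). The share was 17.7% in windows of CpG-rich genes and 25.8% (25 of 97) in the list of other spliceosome genes. A match describes the sequence and does not show that a factor was bound.

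Other motifs were closer to the background. The SP/KLF box GGGCGG was in 32 member windows (66.7%, against 59.8% of all windows) and CCAAT in 18 (37.5%, against 32.2%). The cyclic AMP response core TGACGT was in 10 (20.8%, against 10.4%), of which 5 were tri-snRNP and 4 SR protein genes. GATAA, the core bound by the GATA factors of megakaryocytes, was in 5 (10.4%, against 7.53%), CACGTG in 4 (8.33%, against 8.001%), and the YY1 core ATGGCGG in 4 (8.33%, against 7.01%). The full element TGACGTCA was in 2 windows (4.17%, against 3.10%). TATAAA (at Srsf3), the NRF1 core GCATGCGC and CTCTTTC were in 1 window each (2.08%), against 2.72%, 3.96% and 4.84% of all windows. Sites of different motifs may overlap. CpG dinucleotides were at 0.9895 of the number expected from base content in the median member window, against 0.7997 over all windows, while GC content was similar at 63.2% and 64.7%.

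**Figure D3:**
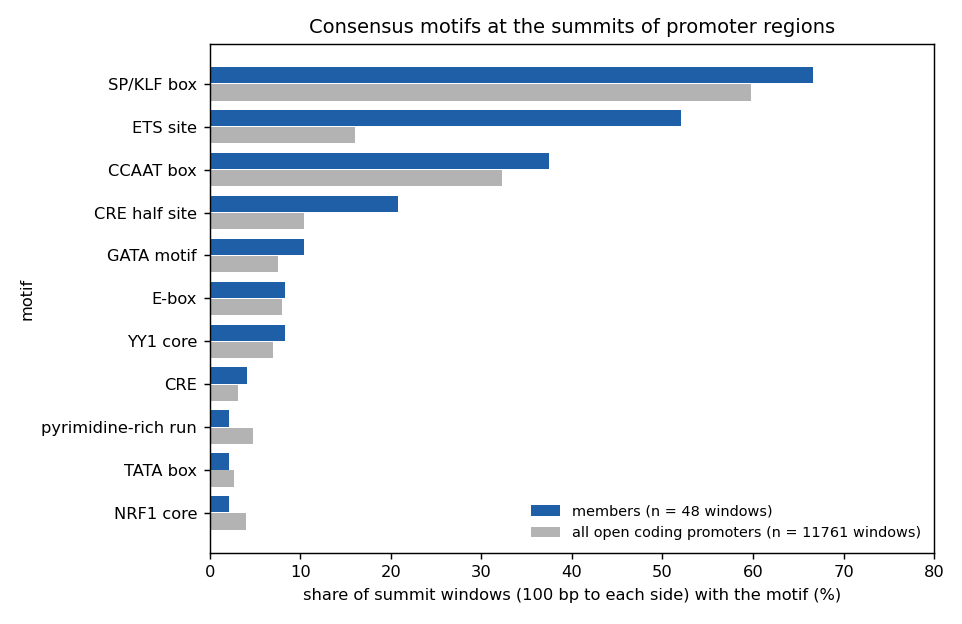
Share of windows reaching 100 bp to each side of promoter summits that hold each motif on either strand (x axis, %), for 48 member windows in blue and 11761 windows of all open coding promoters in grey. The ETS core shows the widest gap, 52.1% against 16.1%.

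Tri-snRNP genes had open promoters at all 11 members, with a median of 14.8-fold. The tallest was Prpf8, the scaffold protein at the catalytic centre, with 22.9 and 23.0 (22.95 ± 0.1097, SD, n = 2), a height passed by few open promoters (99.96th percentile). Snrnp27 gave 19.4 and 17.96 (18.7 ± 1.00) and Prpf3, a U4/U6 protein gene, 18.7 and 18.1 (18.4 ± 0.439). Prpf4b, a kinase gene, was the lowest with 7.75 and 8.16 (7.96 ± 0.288), well below Prpf8 in both replicates. Snrnp200, which encodes the helicase that unwinds U4 from U6, gave 14.7 and 14.5 (14.6 ± 0.113). The related genes Prpf38a and Prpf38b, which encode activation factors, differed by little but without overlap, at 15.4 and 15.1 (15.3 ± 0.190) against 13.86 and 13.96 (13.91 ± 0.0740). Prpf31, a U4/U6 protein gene, gave 14.5 and 12.7 (13.6 ± 1.28) and had the fifth largest log2 ratio between replicates in size.

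The minor spliceosome genes spanned the whole range. Snrnp48 had the tallest promoter region of any member, with 23.9 and 22.8 (23.3 ± 0.783, SD, n = 2). Snrnp35 had the lowest, with 6.88 and 7.37 (7.12 ± 0.353), and Snrnp25 lay between them with 16.5 and 16.2 (16.4 ± 0.169). All encode proteins of the U11/U12 particle. The values of Snrnp48 and Snrnp35 were far apart in both replicates. At the catalytic stage, Prpf19, a ubiquitin ligase gene, gave 17.6 and 16.5 (17.0 ± 0.753). Prpf18, whose protein acts in the second catalytic step, gave 14.7 and 13.3 (14 ± 1.01).

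Upstream sequence is shown for Prpf8 and Sf3a1, which are among the tallest promoters, and for Snrpn, which had no region. Each line gives bases of GRCm38.p6 (RefSeq) on the strand of the gene, ending at the base before the most upstream annotated start nearby and stopping where an exon of any gene begins. The capitals mark the SP/KLF, CCAAT, ETS, NRF1, YY1 and TGACGT cores spelled out above, on either strand. Exons reach the starts of Snrnp48 and Snrnp35, for which no sequence is shown.
Prpf8, chr11:75486657-75486776, plus strand: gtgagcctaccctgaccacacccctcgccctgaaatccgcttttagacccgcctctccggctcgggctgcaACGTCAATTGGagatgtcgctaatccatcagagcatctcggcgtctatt
Sf3a1, chr11:4160294-4160349, plus strand: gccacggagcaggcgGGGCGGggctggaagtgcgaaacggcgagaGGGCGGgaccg
Snrpn, chr7:60005200-60005319, minus strand: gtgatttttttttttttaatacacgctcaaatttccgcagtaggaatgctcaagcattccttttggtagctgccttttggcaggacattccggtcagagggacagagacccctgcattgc
The Prpf8 stretch holds TGACGT and CCAAT side by side, both on the reverse strand, and 9 CpG dinucleotides in 120 bases. That of Sf3a1 holds 2 GGGCGG boxes in 56 bases and ends inside its CCGGAAG site, with 76.8% GC. The Snrpn stretch has 45% GC and 3 CpG dinucleotides, and holds none of the motifs. The absence of these letters says nothing about factors at that promoter.

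SR protein genes stood lower than the other members by fold enrichment. SR proteins bind enhancer sequences in exons. All 10 SR genes had open promoters, but their median was 10.5-fold, against 14.7-fold over the 38 other open members and 11.5-fold over all open promoters. In replicate 1 the medians were 10.7 for SR genes and 15.1 for the others, and in replicate 2 they were 10.4 and 14.5. By percentile among open promoters the SR median was 40.2 on fold enrichment but 54.7 on the −log10 p-value of the peaks, so their place below the typical promoter depends on the measure. On both measures they stayed below the other members, whose median percentiles were 78.5 and 76.0.

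Srsf4 was the highest SR gene with 14.5 and 15.3 (14.9 ± 0.563, SD, n = 2), and Srsf6, its relative, gave 9.58 and 9.35 (9.47 ± 0.159). The pair did not overlap. Srsf5 was the lowest with 8.63 and 8.61 (8.62 ± 0.0167). Srsf12 had the largest log2 ratio between replicates of any member (0.43), with 7.41 and 10 (8.70 ± 1.84), and its summit lay 483 bp downstream of the nearest start. Its relative Srsf10 gave 10.6 and 10.7 (10.7 ± 0.0633). Srsf3, a short SR protein gene, gave 11.4 and 13.5 (12.4 ± 1.46), and Srsf7 gave 10.8 and 9.77 (10.3 ± 0.719). Srsf1 gave 12.2 and 10.9 (11.5 ± 0.864) and Srsf9 gave 11.7 and 11.7 (11.7 ± 0.0195), so that their ranges overlapped. With n = 2, ranges that do not overlap are a weak sign of a difference. The gap was 5.42 for Srsf4 and Srsf6, with an SD of the difference of 0.585. It was 1.98 with an SD of 1.84 for Srsf10 and Srsf12, and 2.17 with an SD of 1.62 for Srsf3 and Srsf7. Each SD of a difference combines those of the 2 genes as if they were independent, although both were read in the same libraries. Paired by replicate, these SDs would differ. How often unrelated members fail to overlap was not counted.

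Some SR promoters were broad. Shared regions of at least 1.5 kb were found at 3 of 10 SR genes, Srsf5 (1747 bp), Srsf6 (1753 bp) and Srsf7 (1562 bp), and at 1 of the 38 others. These widths are those of the union of both replicates. Srsf6 had 2 regions in each replicate but 1 shared region, so its width may join separate regions. At Srsf5 the highest summits of the replicates lay 708 bp apart. Over all open promoters 4.05% were that broad, and 5.39% over those of CpG-rich genes, to which 9 of the 10 SR genes belong. The median width was 1064 bp for SR genes and 908.5 bp for the others. It was 873 bp over all open promoters and 950.5 bp over those of CpG-rich genes. Across members, taller regions tended to be narrower, with a Spearman correlation of −0.36 over 48 genes, whereas it was 0.23 over 13004 open promoters; both are descriptions across genes. The narrowest SR regions were those of Srsf12 (395 bp) and Srsf4 (500 bp), and Srsf4 had another region beside its main one, with 3.98 and 6.23 (5.11 ± 1.59).

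**Figure D4:**
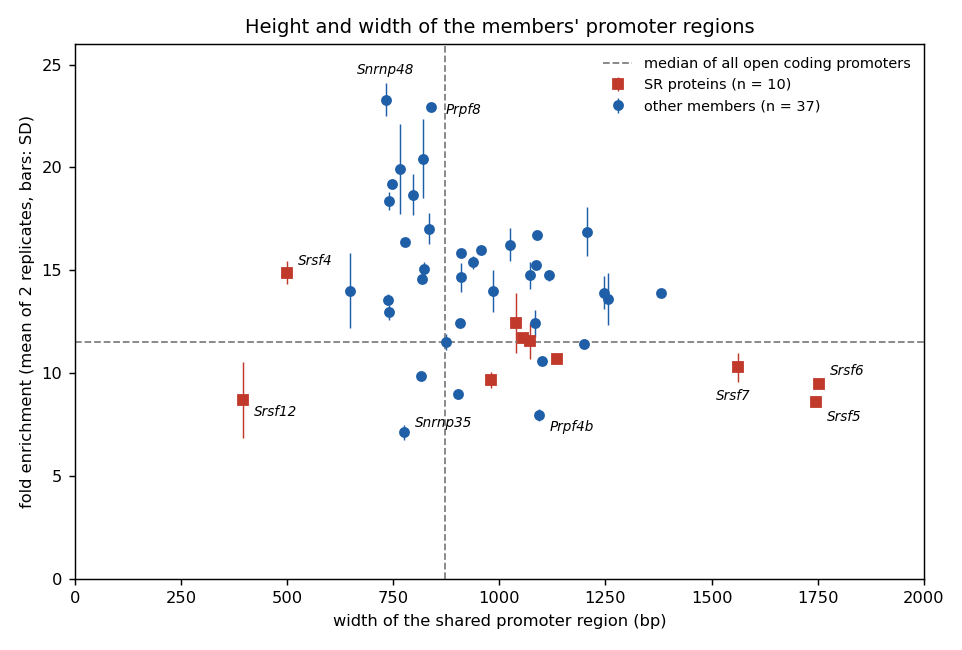
Mean fold enrichment (y axis, bars give the SD over 2 replicates) against the width of the shared promoter region in bp (x axis) for 10 SR protein genes as squares and 37 of the 38 other members as circles, with dashed lines at the medians of all open coding promoters. Srsf5, Srsf6 and Srsf7 lie beyond 1500 bp and below the horizontal line at 11.5-fold.

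Accessibility peaked just before the transcript start. The summit lay within 100 bp upstream of the nearest start at 32 of 48 members (66.7%), against 54.4% of all open promoters, and the median position was −55.5 bp against −35 bp. At 45 members (93.75%) the strongest region lay at the 5′ end of the gene, against 85.3% of all open promoters and 92.6% of CpG-rich ones. The exceptions were Prpf6, Snrpa1 and Snrpc, whose strongest regions had summits near inner starts located 9448, 1529 and 1934 bp after the 5′ end, and in each the RefSeq start lies in that region. At Prpf6, which encodes a bridging protein of the tri-snRNP, the inner region gave 9.93 and 9.76 (9.85 ± 0.122, SD, n = 2), against 4.88 and 4.94 (4.91 ± 0.0435) at the 5′ end. The values of the inner region were thus above those of the outer one in both replicates.

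Many members start close to a gene that runs the other way. A start on the opposite strand that pointed away lay within 1 kb at 25 of 48 open members (52.1%), against 26.9% of all open promoters. Every annotated start was tried, so genes with more starts had more chances of a match. The gaps reached 948 bp, between Prpf6 and Zfp512b, and a start that far away need not share the promoter. The partner was protein-coding at 16 members (33.3%, against 17.4%). The tri-snRNP genes had a partner at 8 of 11: among them the start of Tfpt lay 56 bp from that of Prpf31, Orc1, for a subunit of the origin recognition complex, 87 bp from Prpf38a, Cdc26, for a subunit of the anaphase-promoting complex, 155 bp from Prpf4, and Zcchc17 189 bp from Snrnp40. Closest were Plekhj1 at 4 bp from Sf3a2 and Fam186b at 7 bp from Prpf40b. The U11/U12 and catalytic stage genes had none. A region between such starts cannot be assigned to either gene. Of CpG-rich open promoters of all genes, 32.2% had a partner, and of CpG-rich members 61.3%.

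Distal regions, defined as shared regions more than 1 kb from any transcript start, were about as frequent near members as near all coding genes. At least 1 lay within 50 kb of 46 of 50 members (92%), against 77.3% of all genes, but the mean number was 3.4 per member against 3.67 per gene, with a median of 3 in both. Among CpG-rich genes 90.3% had at least 1, and 93.55% of CpG-rich members did. The mean was 4.63 for CpG-rich genes and 3.32 for CpG-rich members, so beside CpG-rich genes the members had fewer. The 170 distal regions had a median of 7.62-fold, against 7.12-fold over 48720 distal regions. Of these, 90 lay in introns, 21 in exons and 59 between genes, and 6 lay inside a member gene. A member was the nearest coding gene for 34 of the 170 (20%), so most of these regions lie nearer to another gene. The same shares by location and nearest gene were not counted around other genes, so they are not a trait of the members. GATAA was within 100 bp of the summit in 16.5% of the 170 regions and in 19.3% of all distal regions.

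Sf3b5 had the most, with 11, followed by Prpf40b, Sf3a3, Snrnp35 and Snrpd3 with 9 each. The tallest were 1 region in Sf3b5 itself, described next, and 1 at −25.4 kb from Snrnp200 with 19 and 18.45 (18.73 ± 0.386, SD, n = 2), where negative distances are upstream of the member. Next came a region 39 kb downstream of the start of Prpf31, in an intron, with 19.2 and 15.4 (17.3 ± 2.75) and with Tmc4 as the nearest coding gene. A region at −50.1 kb from Srsf5, counted because its edge lay within 50 kb, gave 17.2 and 16.2 (16.7 ± 0.703), and a region at −8.08 kb from Sf3b5 gave 16.9 and 16.2 (16.5 ± 0.494). The region near Srsf5 was taller than the promoter region of Srsf5, at 8.62-fold, in both replicates, but its nearest coding gene was Susd6. The nearest coding gene of the region at −25.4 kb from Snrnp200 was 1810024B03Rik.

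Sf3b5 encodes a small subunit of SF3b, and its missing promoter region depends on the annotation. GENCODE M21 gives it a sole start at chr10:13005343, and the nearest region lay 2.66 kb from it in replicate 1 and 2.68 kb in replicate 2. RefSeq puts the start 3107 bp farther downstream, at 13008450. That base lies inside a shared region, chr10:13008000-13009108, which GENCODE places within the transcribed exon of the gene. Its fold enrichment was 19.3 and 19.1 (19.2 ± 0.125, SD, n = 2), at the 97.9th percentile of open promoters, with the summit at −59 bp from the RefSeq start. It was the tallest of the 170 regions counted as distal. With RefSeq starts for every gene, 49 of 50 members had a shared promoter region, against 59.2% of 20273 coding genes with such starts. Of those genes, 42 (0.207%) were open only with RefSeq starts, and 561 only with GENCODE starts.

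**Figure D5:**
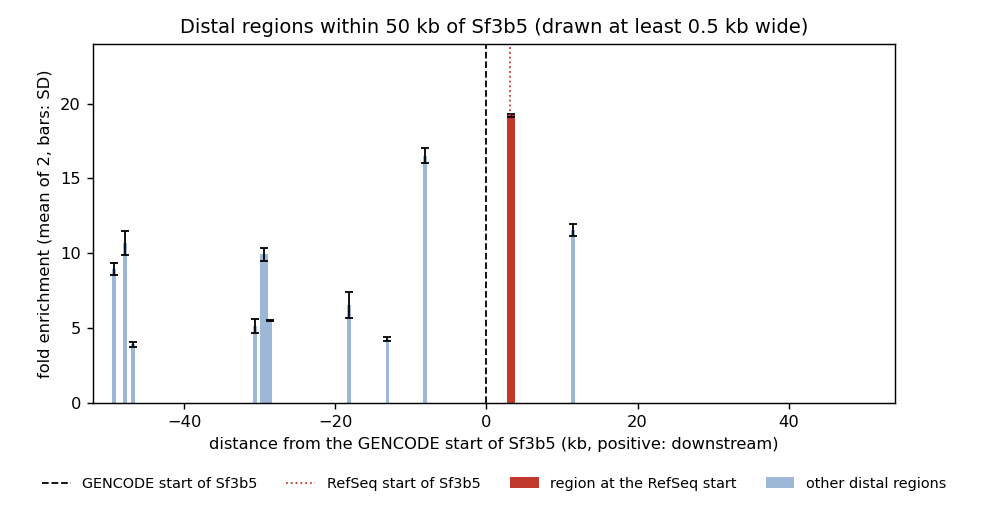
Fold enrichment (y axis, mean of 2 replicates, bars give the SD) of the 11 distal regions within 50 kb of Sf3b5, by distance in kb from its GENCODE start (x axis). The region at the RefSeq start, in red, is the tallest at 19.2-fold, and the next, at −8.08 kb, reaches 16.5-fold.

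Snrpn encodes SmN, a relative of SmB that is made mainly in the brain and heart, and lies in an imprinted domain that is expressed from the paternal copy. It was the only member with no region under either annotation. None of its GENCODE starts or its 6 RefSeq starts lay within 500 bp of a region. The nearest region to any GENCODE start was 482.5 kb away in replicate 1, and 682.0 kb away in replicate 2. No distal region lay within 50 kb, and the promoter of Snurf, which shares its transcript with Snrpn, had 0 regions in both replicates. Among all coding genes, 670 (3.08%) lay at least as far from any region of either replicate. Its relative Snrpb was open in both replicates at 11.5-fold, as given above.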

How the data were processed

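Peaks were called by the authors on mm10 from filtered alignments of each sample, with a list of excluded regions, per the deposited notes on the files; aligner and peak caller are not given in the sources used here. The deposited per-sample pseudoreplicated lists give each peak a fold enrichment over local background, a ratio named after the peak format since no header defines it, and a −log10 p-value and −log10 q-value. All columns were mapped to samples (0 left out). No counts were given, so depth is unknown.

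Peaks overlapping by at least 1 bp were merged, keeping the highest fold. A shared region was the union of overlapping regions of both replicates, its height the mean ± SD (n = 2). Distal regions lay over 1 kb from any GENCODE M21 start. CpG-rich means an observed over expected ratio of at least 0.6 and GC of at least 55% within 500 bp of the 5′ end. Python 3.11.15, numpy 2.4.6, scipy 1.17.1 and pysam 0.24.0 were used. The pairing of replicates and the promoter and distal calls were tested on simulated data, and the motif, CpG and neighbour steps were not.

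Members and lists were chosen with earlier results of these data known. Named members were the 10 highest and 5 lowest promoters, members without one, 7 paralogue pairs, the extremes of each role, the 5 with the most distal regions, the largest replicate gaps, the strongest distal regions, or strongest regions off the 5′ end. Genes that are no member were named after their values were seen. Upstream sequence was printed in place of summit windows, to leave out UTRs; the values of 1 member and some sequences are not reported here. Alternatives were other peak lists, windows, overlaps, starts and measures, and each replicate left out.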

Additional observations from a re-analysis of the deposited data

How the results depend on the processing

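With 2 libraries of unknown depth, spreads are rough and undetected regions are not shown to be closed. The number of members with a promoter region ranged from 46, with the 5′ end as the only start, to 49, with RefSeq starts, an alternative chosen after seeing the data; it was 48 with either replicate left out. The median height ranged from 13.6 to 14.5 with a replicate left out. By −log10 p-value in place of fold enrichment, the median percentile of members was 68.2 in place of 72.5, and that of SR genes 54.7 in place of 40.2, on the other side of the all-gene median; the cause was not tested. The mean number of distal regions per member was 1.68 with the IDR lists, 1.26 within 20 kb, 7.5 within 100 kb, 3.24 at 50% reciprocal overlap and 3.2 with the 5′ end only, and from 3.98 to 4.1 with a replicate left out. The values over all genes were 1.75, 1.72, 6.68, 3.54 and 3.04, and from 4.25 to 4.34, so members were above all genes within 100 kb and with the 5′ end only. Added after seeing the data, the CCGGAAG windows numbered 17 within 50 bp of the summit and 27 within 200 bp (11.1% and 20.2% of all), and divergent partners 23 within 500 bp and 16 when protein-coding (24.55% and 17.4% of all). No paired comparison of conditions was possible because there was 1 group, and the SDs of differences between genes were not paired by replicate. Of the fold enrichments of named members, only Prpf6 moved beyond its SD, to 4.91 with the 5′ end as its only start. With a replicate left out, the value is that of the other replicate, which always lies within the SD of 2 values. The IDR lists gave the same heights as the main lists. These alternatives therefore do not show that the heights are stable. The percentiles of named members depended on the measure: by −log10 p-value 32 moved beyond the spread between replicates and 3 did not. Snrpd3 went from 41.5 to 81.2 and Prpf40b from 72.8 to 34.9.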
